A study of Mus musculus with 2 samples.

Results

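The genes described here are the MHC class II genes, their transactivator Ciita and the genes of class II peptide loading. They were taken by symbol as Ciita, H2-Aa, H2-Ab1, H2-Eb1, H2-DMa, H2-DMb1, H2-DMb2, H2-Oa, Cd74 and Ifi30, and all 10 were found among the 23444 gene symbols of both tables. The study sequenced RNA of bone marrow derived macrophages, which are matured in the dish from mouse marrow precursors, from the inbred strain FVB. There were 2 libraries, 1 from wild-type mice (WT, RON proficient) and 1 from RON TK-/- mice, in which the tyrosine kinase of the receptor RON is deficient. Per the labels both cultures were kept in high-glucose DMEM with 10% serum and 6 mM glutamine and were given 10 ng/mL recombinant interleukin-4 over 72 hours. The labels do not state age, the number of animals or any pooling. The comparison asks how the macrophage transcriptome differs with and without the RON kinase. Each group is 1 library, without replicates or tests, so every difference below is one between these libraries.

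Class II molecules are pairs of an alpha and a beta chain that display peptides from the endosome to CD4+ T cells. Ciita binds no DNA itself: it is recruited to a shared promoter module, made up of an X box held by RFX factors and a Y box held by NF-Y, and its own transcription is the main switch of the system. In macrophages interferon gamma turns Ciita on, and interleukin-4 can also raise class II display. The newly made chains are held by the invariant chain Cd74, whose remnant CLIP is then exchanged for peptide by H2-DM, while H2-O restrains H2-DM and Ifi30 opens disulfide bonds of the antigens. FVB mice carry an H2 haplotype other than that of the C57BL/6J reference, and class II chains are among the most variable genes between haplotypes. Mice of the FVB haplotype do not display the H2-E molecule.

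The promoter module was examined in RefSeq promoter sequences of the GRCm38.p6 build, each spanning 250 bases before to 50 bases after a listed start. Of the 10 genes 7 had an entry, and Ciita, H2-Ab1 and Cd74 had none. The pattern searched was AAC, the end of the X box core, followed after 25 to 29 bases of any kind by ATTGG, the Y box, and it was set with these promoters in view. It was present on the gene's own strand in 5 genes, H2-Aa, H2-Eb1, H2-DMb1, H2-DMb2 and H2-Oa, against 1.46% of all 32851 promoter sequences on their own strand and 3.08% on either strand. ATTGG alone was present in 22.1% of promoters on their own strand and in 37.4% on either strand. The pattern was also present on the own strand of H2-Ob and H2-Eb2, which are outside the 10 genes. The windows are shown because they are what the 5 genes of the list share in sequence, although their values in the 2 libraries differed widely. They are reference sequence, and the sequence of FVB mice was not examined. Capitals mark AAC and ATTGG, and each window reads 5′ to 3′ on the strand of its gene.
H2-Aa: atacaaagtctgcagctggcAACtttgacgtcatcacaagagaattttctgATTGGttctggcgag
H2-Eb1: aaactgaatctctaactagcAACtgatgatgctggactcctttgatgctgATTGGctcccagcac
H2-DMb1: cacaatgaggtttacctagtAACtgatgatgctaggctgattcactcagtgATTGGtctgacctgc
H2-DMb2: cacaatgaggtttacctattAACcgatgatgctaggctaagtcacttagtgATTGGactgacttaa
H2-Oa: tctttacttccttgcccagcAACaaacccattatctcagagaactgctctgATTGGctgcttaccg

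The windows lie at chr17:34287857-34287922 on the minus strand for H2-Aa and, on the plus strand, at chr17:34305758-34305822 for H2-Eb1, chr17:34153079-34153144 for H2-DMb1, chr17:34145108-34145173 for H2-DMb2 and chr17:34092285-34092350 for H2-Oa. The gap between AAC and ATTGG was 27 bases in H2-Eb1 and 28 bases in the other 4 genes. ATTGG began 43 bases before the start in H2-Oa, 48 in H2-Aa, 59 in H2-Eb1, 61 in H2-DMb1 and 90 in H2-DMb2. The pattern was in neither of the H2-DMa promoter entries and not in that of Ifi30, which says no more than that these letters are not in those windows.

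The labels could not be checked by the targeted gene, and the libraries stood apart in a way that the labels do not describe. Mst1r, which encodes RON, was listed at 0 in both. Levels are in FPKM, the fragments per kilobase of a transcript for each library's depth. Arg1, a marker of the response to interleukin-4, had 1.0 FPKM in the WT-labelled library and 5041 in the RON TK-/- labelled library, while Nos2, a marker of the response to interferon gamma and endotoxin, had 1100 and 3.63. Labels or treatments exchanged between the libraries and a difference of genotype cannot be told apart from these files, so each direction below belongs to a label. The deposited coverage implied about 59770000 and 67147000 reads. All 9 macrophage markers were detected, including Csf1r at 184 and 267 FPKM. Of the professional class II cells that could be mixed in, B cell markers were at or near 0 (0 of 6 with at least 1 FPKM, summed level 0.24 and 0.0723, Ms4a1 at 0.0418 and 0), and 2 of 8 dendritic cell markers reached 1 FPKM. These were Itgax (2.89 and 29.5), which macrophages also express, and Batf3 (18.9 and 11.4). Below the minimum, Zbtb46 (0.993 and 0.494) and Ccr7 (0.836 and 0) were higher in the WT-labelled library. Cd209a (0 and 0.191) was higher in the other, and Clec9a was listed at 0 in both. T cell markers reached 1 FPKM for 0 of 4 genes (summed level 0.406 and 0.809), and neutrophil markers for 1 of 4 genes found. Fibroblast markers were all present, at a summed 620 FPKM in the WT-labelled library and 721 in the other, with Col1a1 at 195 and 250. The part of such cells in the values below was not tested, and in bulk RNA fewer cells of a type and less RNA per cell cannot be told apart.

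Ciita was the member that differed most between the libraries, the classical chains H2-Ab1 and H2-Eb1 were lower with it in the RON TK-/- labelled library, and the genes of invariant chain, H2-DM and thiol reductase were less than 2-fold apart. Ratios are given as log2 of (FPKM + 1) in the RON TK-/- labelled library over (FPKM + 1) in the WT-labelled library, a scale that understates the differences of low genes, and genes reaching 1 FPKM in a library were counted. All 10 members passed this minimum, but Ciita, H2-Eb1 and H2-Oa passed it through the WT-labelled library alone, so their difference is partly set by it. On this scale the RON TK-/- labelled library was at least 2-fold lower for 3 of 10 members, where 8.71% of all 11288 genes were, and 0 of 10 were at least 2-fold higher, where 25.6% of all genes were. The median ratio of all genes was 0.57, and the median of the 10 members was -0.21. With the libraries rescaled to a median of 0, it was at least 2-fold lower for 4 of 10 members against 13.9% of all genes, and 0 of 10 were at least 2-fold higher against 8.42%.

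**Figure D1:**
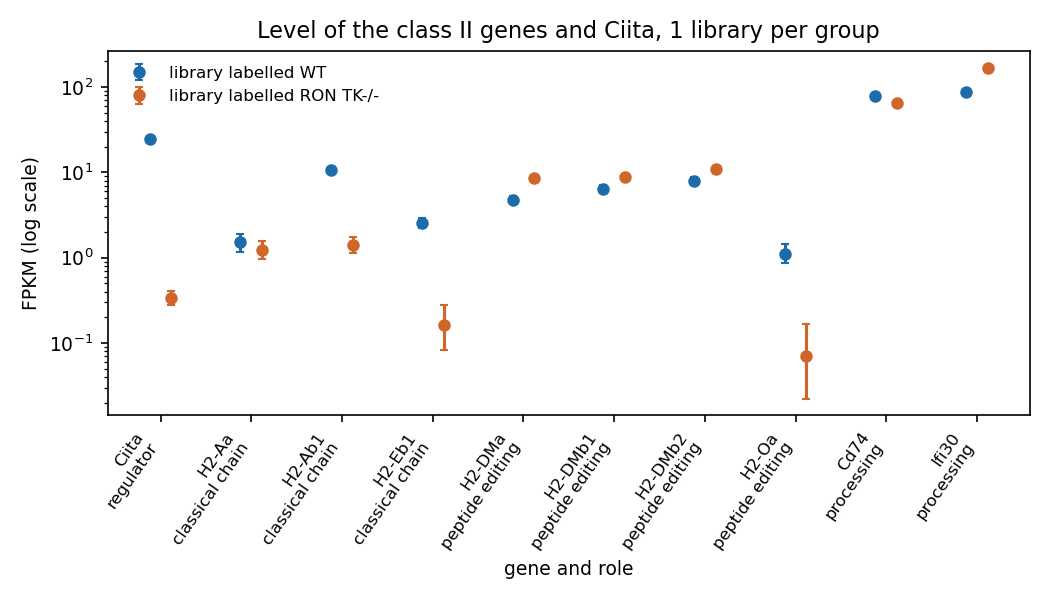
FPKM of each gene (log axis) in the WT-labelled library (blue) and the RON TK-/- labelled library (orange), 1 library per group; bars are 95% Poisson intervals from estimated reads and cover counting error only. Ciita goes from 24.5 to 0.339 FPKM, while the H2-DM genes, Cd74 and Ifi30 are less than 2-fold apart.

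Ciita, the transactivator without which class II genes are hardly transcribed, had 24.5 FPKM in the WT-labelled library and 0.339 in the RON TK-/- labelled library. The level was thus 72.4-fold higher in the former, and the log2 ratio was -4.25. About 7561 and 108 reads stood behind these values, so both were well above the level of 3 reads (0.00986 and 0.00878 FPKM). Among all counted genes the level of Ciita lay at percentile 78.1 in the WT-labelled library and at percentile 1.57 in the other. Its ratio was lower than that of all but 1.04% of genes.

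The files list Ciita on chromosome 16 from 10480072 to 10527564 of mm10 as 3 transcripts that differ in where they start. Rodent Ciita is known to have alternative promoters along the gene, of which the upstream promoter serves dendritic cells and other myeloid cells, the next serves lymphocytes and the downstream promoter responds to interferon gamma. The transcript with the downstream start, at 10489781, had 19.0 FPKM in the WT-labelled library, or 77.7% of the gene's total, and 0.338 in the RON TK-/- labelled library. The transcript starting at 10488178 had 3.43 FPKM (14.0%) and the one starting upstream, at 10480072, had 2.04 FPKM (8.33%) in the WT-labelled library. In the RON TK-/- labelled library both of these were estimated at less than 1 read. As estimated, the downstream transcript thus carried most of the level in each library. The split between transcripts is the estimate in the deposited files. Of the 3904 read-length stretches in its matched GENCODE transcript, the downstream transcript shared all but 83 with other listed Ciita transcripts. About 108 reads were assigned to it in the RON TK-/- labelled library, and few of these could mark its start alone. Its share in that library is therefore uncertain.

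**Figure D2:**
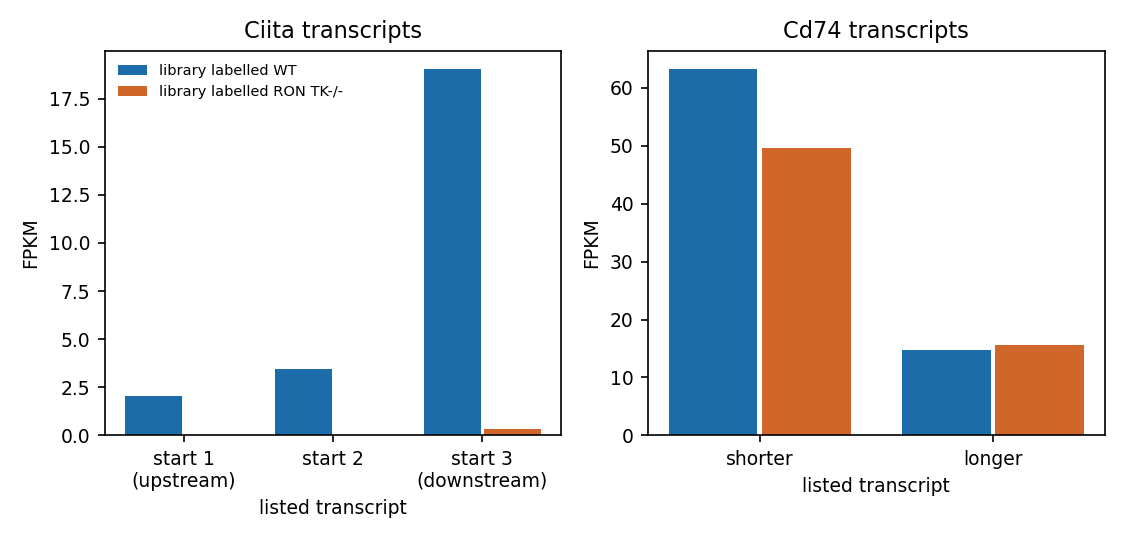
FPKM of each listed transcript of Ciita (left, in order of start along the gene) and Cd74 (right) in the WT-labelled library (blue) and the RON TK-/- labelled library (orange), with 1 library per group and no error bars. The downstream Ciita transcript has 19.0 and 0.338 FPKM, and the longer Cd74 transcript has 14.8 and 15.6.

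The classical chains are the subunits of H2-A and H2-E, of which mice of the FVB haplotype do not display H2-E. H2-Ab1, the beta chain of H2-A, had 10.7 FPKM in the WT-labelled library and 1.41 in the RON TK-/- labelled library, a log2 ratio of -2.29. H2-Eb1, the beta chain of H2-E, had 2.54 and 0.161 FPKM, a log2 ratio of -1.61, from about 228 and 12 reads. H2-Aa, the alpha chain that pairs with H2-Ab1, had 1.52 and 1.23 FPKM, a log2 ratio of -0.17. As deposited the beta chains thus differed while H2-Aa was nearly level, but relative to the median of all genes H2-Aa lay at -0.74, and median rescaling gave -0.50. From the reads alone the H2-Aa ratio had a 95% interval of -0.67 to 0.33 on the log2 scale (exact Clopper-Pearson on estimated reads without a pseudocount, counting error only), so that no difference of H2-Aa from 0 was detectable at this depth. The median of all genes, 0.57, lay above that interval.

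Summed over the classical chains the level was 14.8 FPKM in the WT-labelled library and 2.80 in the RON TK-/- labelled library, 5.29-fold higher in the former, with a log2 ratio of -2.06. The balance of the partner chains differed too. H2-Ab1 stood at 7.08 times the level of H2-Aa in the WT-labelled library and at 1.14 times in the RON TK-/- labelled library. How far sequence differences between FVB and the reference lowered either chain was not tested. H2-Ea-ps, the alpha chain gene of H2-E, named a pseudogene in the reference, had 5.35 FPKM in the WT-labelled library and was listed at 0 in the other.

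H2-DM exchanges CLIP for peptide, and its genes did not share the difference of Ciita. H2-DMa, the alpha chain, had 4.80 FPKM in the WT-labelled library and 8.56 in the RON TK-/- labelled library (log2 ratio 0.72). The beta chain genes H2-DMb1 (6.46 and 8.80 FPKM, 0.39) and H2-DMb2 (7.93 and 10.9 FPKM, 0.42) had a smaller ratio. Each was less than 2-fold apart, and relative to the median of all genes they lay at 0.16, -0.17 and -0.15, so that the sign of both beta chain genes turned once the libraries were rescaled to that median. Their ratios were at percentiles 59.4, 39.8 and 40.9 of all genes. H2-DMb1 and H2-DMb2 are near-identical copies, with 27.2% of the 50-base stretches of H2-DMb1 also present in H2-DMb2, so reads could have been split between them and their single values are uncertain. H2-DMa shared 0 such stretches with other genes.

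H2-Oa, the alpha chain of the H2-DM inhibitor H2-O, had a ratio below 0, as the classical chains did. It had 1.12 FPKM in the WT-labelled library and 0.0714 in the RON TK-/- labelled library, from about 63 and 5 reads, the latter close to the level of 3 reads (0.0426 FPKM). Its log2 ratio was -0.98 with 1 added to each value and therefore just inside 2-fold. Without that addition it was -3.97, with a counting interval of -5.49 to -2.52. In H2-Oa 21.7% of 50-base stretches were also in the transcript model BC051537, which makes its level uncertain. H2-Ob, the partner beta chain, had 0.156 FPKM in the WT-labelled library and was listed at 0 in the other.

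Cd74 and Ifi30 were the abundant members in both libraries. Cd74, the invariant chain, had 78.1 FPKM in the WT-labelled library and 65.2 in the RON TK-/- labelled library, a log2 ratio of -0.26. Relative to the median of all genes it lay at -0.82, and median rescaling gave -0.90. Its longer listed transcript, which carries an added exon for a protease-inhibiting domain, had 14.8 and 15.6 FPKM, or 19.0% and 24.0% of the gene. Ifi30, the thiol reductase, had 87.7 and 167 FPKM, a log2 ratio of 0.92, which was 0.35 above the median of all genes. Cd74 stood at 5.27 times the summed classical chains in the WT-labelled library and at 23.3 times in the RON TK-/- labelled library, and the summed H2-DM genes at 1.30 and 10.1 times. As deposited, the chaperone and the editor thus outnumbered the chains they serve by more in the RON TK-/- labelled library, in transcripts per length. The level of the classical chains is uncertain, because effects of FVB sequence were not tested, and H2-Ea-ps was not in their sum.

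**Figure D3:**
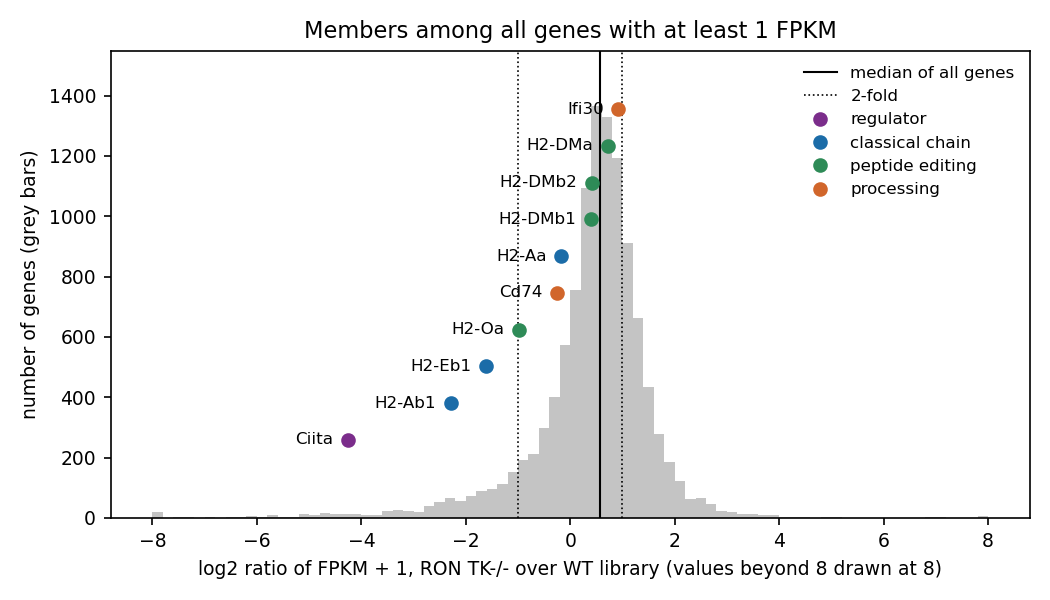
Grey bars count the 11288 genes with at least 1 FPKM by their log2 ratio of FPKM + 1 (RON TK-/- labelled library over WT-labelled library), and coloured points place the members at their ratio, at arbitrary heights. Ciita (-4.25), H2-Ab1 (-2.29) and H2-Eb1 (-1.61) lie beyond 2-fold, and the H2-DM genes and Ifi30 lie around the median of 0.57.

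The order of the levels differed between the libraries. In the WT-labelled library it ran from Ifi30 through Cd74, Ciita, H2-Ab1, H2-DMb2, H2-DMb1, H2-DMa, H2-Eb1 and H2-Aa to H2-Oa, and the counting intervals of H2-Aa and H2-Oa overlapped while those of the other neighbours did not. In the RON TK-/- labelled library it ran from Ifi30 through Cd74, H2-DMb2, H2-DMb1, H2-DMa, H2-Ab1, H2-Aa, Ciita and H2-Eb1 to H2-Oa. There the intervals overlapped between H2-DMb1 and H2-DMa, between H2-Ab1 and H2-Aa, between Ciita and H2-Eb1, and between H2-Eb1 and H2-Oa. Ciita thus moved from place 3 to place 8 of 10. The spread between cultures is not known, so neighbours whose counting intervals part may still lie within it.

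Along chromosome 17 the class II genes of the list span 224 kb of mm10, from H2-Oa (34092379 to 34095234) to H2-Eb1 (34305867 to 34316674), and 13 gene symbols are listed in this stretch. The H2-DM genes (34122832 to 34160229) were the ones with a ratio above 0 as deposited, of which H2-DMa kept that sign after median rescaling. On their sides lay Brd2, a chromatin reader gene, with 91.3 FPKM in the WT-labelled library and 41.0 in the other, and the class I peptide supply genes Psmb9 (70.8 and 20.6), Tap1 (190 and 11.5), Psmb8 (171 and 66.3) and Tap2 (87.2 and 20.3). All 5 were at least 2-fold lower in the RON TK-/- labelled library, where 8.71% of all genes were. Psmb9, Tap1, Psmb8 and Tap2 are counted again in the class I list below. After H2-Ob follow H2-Ab1 (34263227 to 34269418), H2-Aa (34282751 to 34287771) and H2-Eb1. Cd74 lies on chromosome 18 (60803849 to 60812652) and Ifi30 on chromosome 8 (70762773 to 70766663).

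**Figure D4:**
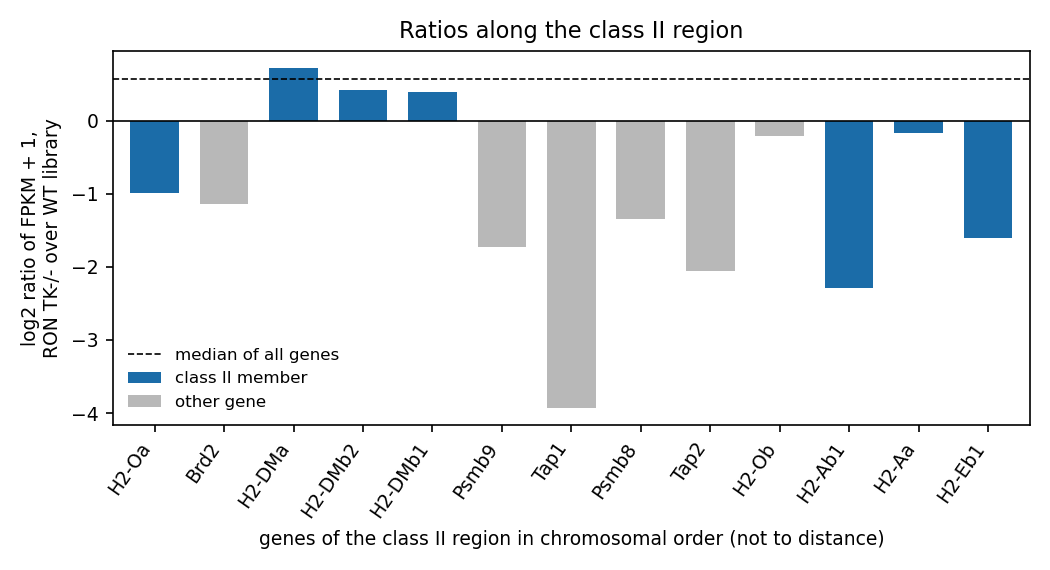
Log2 ratio of FPKM + 1 (RON TK-/- labelled library over WT-labelled library) of the 13 genes listed from H2-Oa to H2-Eb1, in chromosomal order; blue bars are members, grey bars are other genes and the dashed line is the median of all genes. The H2-DM genes stand above 0 between genes that stand below it, although H2-DMb1 and H2-DMb2 turn negative after median rescaling, and Tap1 is at -3.93.

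The other genes of the pathway were taken from 9 fixed lists, again with 1 library per group. Beside each count stand all genes, with 8.71% at least 2-fold lower and 25.6% at least 2-fold higher in the RON TK-/- labelled library. Relative to the median ratio of 0.57 these shares were 14.4% and 8.38%, and counts on that scale are called centred. Prdm1, Il10, Icosl and H2-Ea-ps reached 1 FPKM in the WT-labelled library alone, and Rfxank and Pdcd1lg2 in the other alone. Their direction in the counts is therefore partly set by that minimum. Of the genes that carry signals to the Ciita promoters 5 of 12 were at least 2-fold lower there and 0 higher, with a median ratio of -0.40 (centred 6 lower and 0 higher). The interferon-induced factor Irf1 had 733 and 21.1 FPKM and Irf8 618 and 24.96. Jak2 and Spi1 were also among the lower genes. Stat6, the factor that interleukin-4 activates, had 25.6 and 48.8, a ratio of 0.91. The enhanceosome factors and cofactors to which Ciita binds were closer together, with 0 of 11 lower, 1 higher (Rfxap, 1.66 and 4.90 FPKM) and a median of 0.27. The share higher was below that of all genes. Centred, 1 was lower and 0 were higher, and the lower gene was the X box factor Rfx5 (6.68 and 3.29). Rfxank had 0.312 and 1.38 FPKM and Nfya 14.2 and 26.3. Repressors of Ciita or of class II were lower for 3 of 6 detected genes and higher for 0, with a median of -1.30 (centred 4 lower, with Il10 added, and 0 higher). They were Prdm1 (6.45 and 0.381), the feedback inhibitor Socs1 (432 and 80.4) and Id2 (393 and 123).

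Genes of the endosomal proteolysis list, not all of them proteases, went both ways. Of these, 2 of 10 were higher and 1 lower, shares near those of all genes, with a median of 0.15. Centred, 1 was higher (Ctsl) and 3 were lower (Ctsc, Ctsh and Sppl2a), so the balance turned. Ctsl, which trims the invariant chain in thymic epithelium, had 424 and 3043 FPKM, and Ctss, which does so in antigen-presenting cells, had 641 and 1780. The lower gene was Ctsc (147 and 71.2). In the turnover and traffic list 3 of 12 genes were higher, a share near that of all genes, and 1 lower, with a median of 0.24. Centred, 2 were higher (Ap2m1 and March1) and 3 lower (Cd83, Cd82 and Cd37), so here too the balance turned. March1 (now Marchf1), a ubiquitin ligase that sends class II from the surface to degradation, had 1.73 FPKM in the WT-labelled library and 7.31 in the other. Cd83, which opposes March1, had 447 and 16.9, so that these antagonists lay on opposite sides. The other higher genes were the adaptor subunit Ap2m1 (150 and 619) and March8 (11.0 and 31.7).

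Of the invariant chain's ligands and receptor partners 1 of 4 detected genes was higher, a share near that of all genes, and 0 lower (median 0.41). Centred, Cxcr4 was higher and Cd44 lower. The chemokine receptor Cxcr4 had 1.63 and 38.8 FPKM, Mif, the cytokine that binds Cd74, had 403 and 552, and Cd44 had 202 and 148. The costimulation list, which also holds the inhibitory ligands Cd274 and Pdcd1lg2, had 4 of 6 genes lower and 1 higher. Its median was -4.40, with the same centred counts. Cd40 had 839 and 10.1 FPKM, Cd86 87.2 and 2.62, Icosl 56.2 and 0.682 and Cd274 491 and 26.1. The higher gene was Pdcd1lg2 (0.0486 and 13.7), and Cd80 (11.7 and 16.7) was less than 2-fold apart. For comparison, class I genes with their transactivator Nlrc5, a relative of Ciita, were lower for 7 of 9 (centred 9 of 9) and higher for 0, with a median of -1.44, and Nlrc5 itself had 39.8 and 3.20 FPKM. The 4 genes of the class II locus outside the members were detected for 1, H2-Ea-ps, and H2-Eb2 had 0.0478 FPKM in the WT-labelled library and was listed at 0 in the other.

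**Figure D5:**
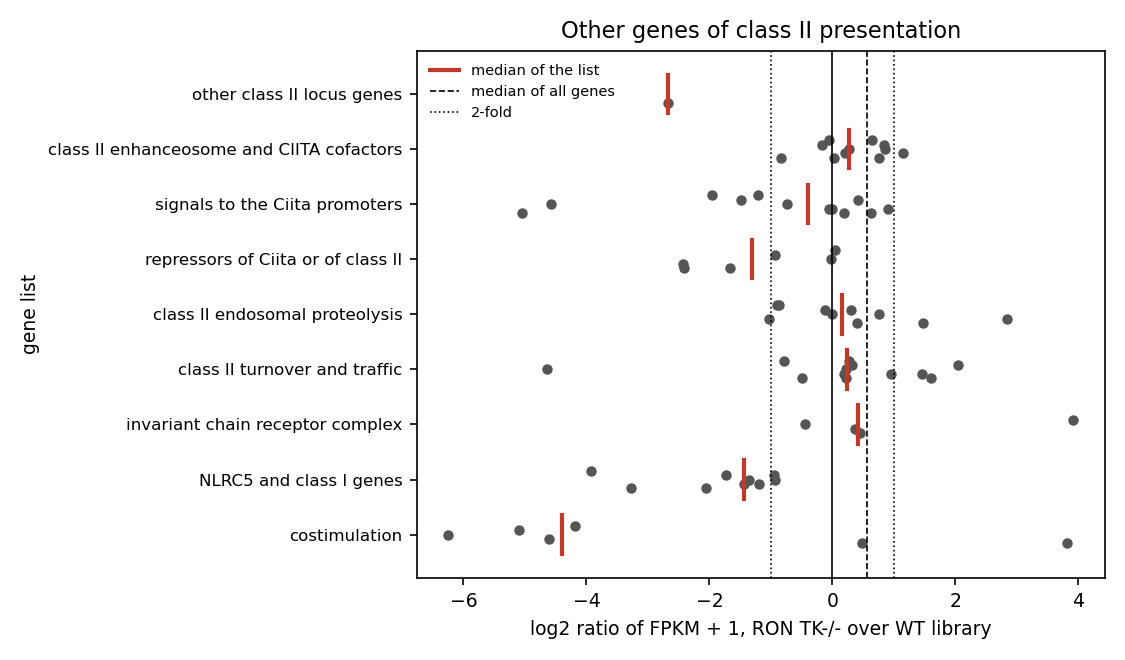
Each point is a detected gene of 9 fixed lists at its log2 ratio of FPKM + 1 (RON TK-/- labelled library over WT-labelled library), red lines are list medians, the dashed line is the median of all genes and dotted lines mark 2-fold. The costimulation list has a median of -4.40, the enhanceosome list one of 0.27.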

How the data were processed

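The members and gene lists were chosen with earlier results of these data known. The authors deposited FPKM per RefSeq transcript and the coverage signal (mean read depth per base), with the column names of Cufflinks, per the file headers. Per the labels, total RNA was extracted with TRIZOL, libraries used a TruSeq kit and reads were single, of 50 bases. The submitters' processing notes name mm10 and DESeq. For the aligner, strand use and annotation release nothing is given in the sources used here.

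Rows were summed per gene symbol. Ratios used a pseudocount of 1 FPKM, a minimum of 1 FPKM in either library and a 2-fold threshold. Reads were estimated as coverage times length over read length, and implied depth from the median coverage over FPKM. They gave 95% counting intervals (exact Clopper-Pearson for ratios, exact Poisson for levels) and the level of 3 reads. They are no counts, and no count model was used. With 1 library per group there was no test. Starts are counted from 1. Named were all 10 members, up to 3 detected genes per list with the largest absolute ratio, 8 fixed genes and the neighbours on chromosome 17. Some named items are not reported here. Others (Jak2, Spi1, Rfx5, Il10, Ctsh, Sppl2a, Cd82, Cd37, March8, Cd80, Cd274 and Pdcd1lg2, which complete a count, and the marker genes, Arg1 and Nos2) were chosen after their values were seen. Promoters came from RefSeq (GRCm38.p6), 50-base stretches from GENCODE M21 transcripts, which matched 9 of 10 members. The ratio calculation was tested on simulated data. Alternatives changed the pseudocount (0.1, 5), the filter (none, 5 FPKM), the scaling (median ratio of 0, TPM), the rows (the most abundant alone), the measure (coverage) and the threshold (1.5-fold, 4-fold). Python 3.11.15, pandas 2.3.3 and scipy 1.17.1 were used.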

Additional observations from a re-analysis of the deposited data

How the results depend on the processing

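Under the 10 alternatives Ciita and H2-Ab1 were at least 2-fold lower (4-fold at that threshold) in the RON TK-/- labelled library each time. H2-Eb1 dropped out with a pseudocount of 5, a 5 FPKM minimum (7 members left) or the 4-fold threshold, and H2-Oa joined with a pseudocount of 0.1, median or TPM rescaling or the 1.5-fold threshold, so 2 to 4 members were lower. At 1.5-fold 2 members, H2-DMa and Ifi30, counted as higher, and under the other alternatives 0 did. The median gene was itself 1.48-fold higher as deposited, close to the 1.5-fold threshold. In the reported setting the ratios of H2-DMa and Ifi30 lay at percentiles 59.4 and 70.5 of all genes. Among the alternatives, the share of all genes was counted for median rescaling alone, so the other counts have no such share beside them. The log2 ratio of Ciita was -5.81 and that of the summed classical chains -2.36 with a pseudocount of 0.1, and they were -2.47 and -1.34 with a pseudocount of 5. Median rescaling gave -2.51 for the classical chains, and it turned the sign of the summed peptide-editing genes (-0.17 against 0.46) and of Cd74 plus Ifi30 (-0.18 against 0.48). TPM rescaling gave 0.42 for the latter and -5.05 for Ciita, and the most abundant row alone gave -3.90 for Ciita. Of 69 values for the other 9 members 53 stayed within counting error of the reported ratio and 16 did not. The filters cannot change a member's ratio, nor can the choice of row where a member has a single row. Part of the 53 was therefore fixed in advance. No paired analysis was possible because each group has 1 library, and for the same reason no replicate could be left out. Depth limits H2-Oa and H2-Eb1 in the RON TK-/- labelled library, at about 5 and 12 reads.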

Other observations

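The deposited coverage and FPKM of the classical chains stood in an unusual proportion. Coverage divided by FPKM had a median of 2.99 in the WT-labelled library and 3.36 in the RON TK-/- labelled library over rows with at least 1 FPKM. For H2-Aa it was 2.14 and 2.63, for H2-Ab1 2.34 and 2.48, and for H2-Eb1 2.69 and 2.19. H2-Aa and H2-Ab1 thus lay below all but 0.0513% and 0.205% of rows in the WT-labelled library and all but 0.208% and 0.115% in the other. H2-Eb1 lay below all but 1.31% and 0.0308%. H2-DMb1, at 2.67 and 2.90, was also low, as was H2-Oa in the WT-labelled library (2.67 and 3.19). Ciita (3.003 and 3.13), H2-DMa (3.06 and 3.43), Cd74 (2.98 and 3.38) and Ifi30 (3.03 and 3.37) were closer to the median. In the RON TK-/- labelled library, however, Ciita lay below all but 3.06% of rows. The FPKM of these chains is therefore 1 of 2 deposited measures that differ in proportion for them, and with coverage-based values Ciita, H2-Ab1 and H2-Eb1 were again the members at least 2-fold lower in the RON TK-/- labelled library.

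Summed classical chains stood at 0.604 times the level of Ciita in the WT-labelled library and at 8.27 times in the RON TK-/- labelled library. As deposited, Ciita thus stood at a higher level per length than the summed classical chains in the WT-labelled library. The level of these chains is uncertain, because effects of FVB sequence were not tested and their coverage over FPKM was low. H2-Ea-ps was not in the sum.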
